A study of Homo sapiens with 6 samples.

Results

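Aurora A (AURKA), the 4 Polo-like kinases found in the data (PLK1, PLK2, PLK3 and PLK4), the kinase NEK2 and 4 partner proteins of the mitotic spindle (TPX2, BORA, TACC3 and CKAP5) were examined in SW480 cells exposed to MPM-1. The 10 genes were picked by symbol, and all 10 had a row in a table of 12982 genes. SW480 is an established human colorectal adenocarcinoma line, labelled as wild type (WT). It was cultured for 24 h with DMSO, the solvent, or with MPM-1, a fluorescent compound that accumulates in mitochondria and that the labels also call WT4. RNA sequencing gave 3 libraries per treatment, and the dose of MPM-1 in this experiment is not given in the sources used here. The libraries come from a single cell line, and the labels do not say whether they were separate cultures, so p-values measure the spread between these libraries, which may be technical.

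Aurora A is a serine/threonine kinase that builds up in G2 phase and acts at centrosomes and on spindle microtubules. TPX2 binds it, activates it and carries it to the spindle, whereas BORA enables it to phosphorylate PLK1 in the activation loop, a step that starts mitotic entry. TACC3 is a substrate of Aurora A and recruits CKAP5 (also called ch-TOG), a microtubule polymerase, to spindle fibres. NEK2 dissolves the linker between the centrosomes before mitosis. The Polo-like kinases share a kinase domain and a polo-box region but differ in use, since PLK1 drives mitosis and PLK4 sets the number of centrioles, while PLK2 and PLK3 are known as genes induced by growth factors, DNA damage and other stress.

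The totals were 32095456 to 40269820 counts per DMSO library and 31733667 to 35403841 per MPM-1 library, and the 10 genes had between 303 and 8076 counts in each library. The share of counts from mitochondrial DNA was 8.28% to 9.11% in DMSO and 1.95% to 2.35% after MPM-1, and its part in the results below was not tested, although scaling without these genes left the same number of the 10 genes called. All 7 markers of colon epithelium had a row. With an adjusted p-value below 0.05 and any fold, 4 were higher (KRT8, KRT18, KRT19 and CDH1, log2 fold changes 0.42 to 0.89) and 2 lower (VIL1, -0.88, and CDX2), with a median of 0.42. At that cut 27.7% of all genes were higher and 28.8% lower. EPCAM stood at 676 ± 49.98 CPM with DMSO and 676 ± 33.3 with MPM-1 (mean ± SD of 3 libraries, where CPM is the usual count unit scaled to library size, here after TMM scaling for composition), whereas CDX2 fell from 82.5 ± 3.51 to 17.9 ± 4.33 CPM (called lower by the rule given below). Of 4 markers of other cell types, only COL1A1 had a row, at 2.97 ± 0.341 CPM in DMSO and 0.705 ± 0.503 CPM after MPM-1, and its part in the results was not tested.

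Promoter sequence was looked up because several of these genes moved together. RefSeq windows on GRCh38.p14, from 250 bases before to 50 bases after the transcription start, were found for 8 of the 10 genes, and AURKA and TPX2 were not matched. The CHR (cell cycle genes homology region, TTTGAA) and the CCAAT box (CCAAT) are elements known from promoters of G2/M genes. Both strands were searched. Of 35116 windows, 15.2% held TTTGAA, 34.6% held CCAAT and 5.90% held both. The windows of PLK1, BORA and CKAP5 held both, with a second CCAAT box in BORA and in CKAP5 and a second CHR in CKAP5 that are not shown. NEK2 held CCAAT and no CHR, and PLK2, PLK3 and TACC3 held neither element. The TACC3 window (chr4:1720381-1720680) ends before the GENCODE start of the gene (1721490), so the bases just before that start were not searched. PLK4 had 3 windows for different starts, of which one held TTTGAA on the reverse strand 39 bases into the transcript and another held CCAAT. The stretches below show these elements in capitals, 5′ to 3′ on the strand of the gene, where ATTGG is CCAAT and TTCAAA is TTTGAA read on the other strand. Some GENCODE transcripts start further upstream, so several of the stretches lie wholly or partly in annotated exons.
PLK1, CCAAT box 73 bases before the start, chr16:23678804-23678833, plus strand: aaatccccgcggCCAATcagtggcgcgcag
PLK1, CHR 29 bases before the start, chr16:23678848-23678877, plus strand: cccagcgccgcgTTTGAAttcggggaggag
BORA, CHR 177 bases before the start, chr13:72727734-72727763, plus strand: aggctgcgttgaTTTGAAtttggagccacg
BORA, CCAAT box 96 bases before the start, chr13:72727815-72727844, plus strand: ggcctccgtgcgATTGGctggttcgcggat
CKAP5, CHR 73 and CCAAT box 63 bases before the start, chr11:46846331-46846360, minus strand: caggcctTTCAAAtggaCCAATaaaagtcc
NEK2, CCAAT box 34 bases before the start, chr1:211675638-211675667, minus strand: gcccaccgcctgCCAATagactgcgagatc

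For PLK2 and PLK3, elements bound by stress-responsive factors are shown instead. PLK2 held the core of a cAMP response element, or CRE (TGACG, in 24.6% of all windows), as did the mitotic genes PLK4, TACC3 and CKAP5. PLK3 held the core of a C/EBP-ATF response element (TGATGNAA, in 3.62% of all windows), which was searched for after the sequence had been seen. No window of the 8 matched genes held TATAAA, which 11.5% of all windows held. These matches describe the letters only, and no binding was measured here.
PLK2, CRE core 77 bases before the start, chr5:58460146-58460175, minus strand: gggcataggccgTGACGtgatgtcgcgtat
PLK3, C/EBP-ATF core 133 bases before the start, chr1:44800233-44800262, plus strand: gagcttctgggTGATGTAAggccgggaatg

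MPM-1 treatment lowered the transcripts of AURKA, PLK1, TACC3 and NEK2 and raised that of PLK3. The 4 that fell lost between 2.28-fold and 4.62-fold, and PLK3 rose 4.52-fold. TPX2, PLK4, BORA and CKAP5 were also lower but changed by less than 2-fold, and PLK2 was on neither side. Calls needed an adjusted p-value below 0.01 in the quasi-likelihood test of edgeR, with Benjamini-Hochberg adjustment over every gene, together with a change of 2-fold or more. All adjusted p-values below come from that fit. By this rule 4 of the 10 were lower, against 8.75% of all genes tested, and 1 was higher, against 5.58% (14.3% in either direction). The median log2 fold change was -0.97 over the 10 genes and -0.026 over all genes. With the adjusted p-value below 0.05 and any fold, 8 were lower and 1 was higher, against 28.8% and 27.7% of all genes (56.5% in either direction). The 3 MPM-1 libraries lay below the 3 DMSO libraries in 8 genes and above them in 1, against 33.3% and 31% of all genes (64.3% in either direction). In bulk RNA, fewer cells in G2 and mitosis and less RNA per cell cannot be told apart.

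**Figure D1:**
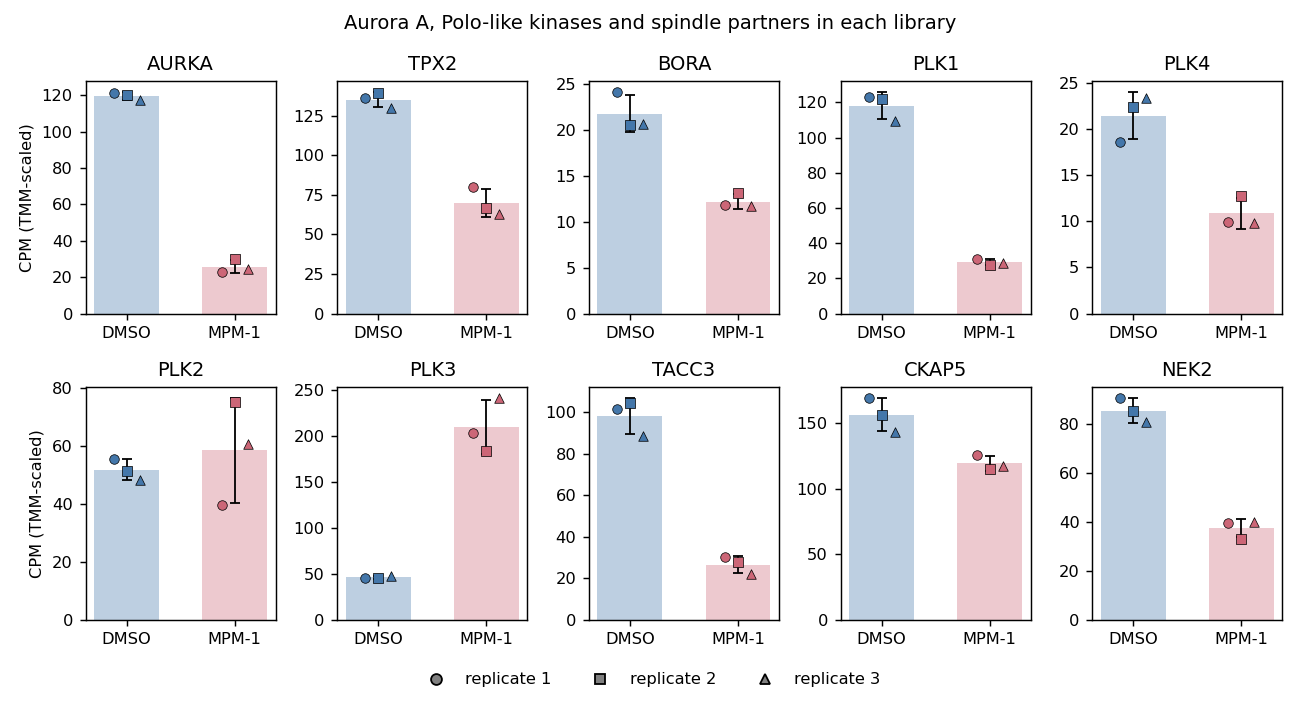
CPM (linear axis from 0) of each of the 10 genes in 3 DMSO and 3 MPM-1 libraries. Bars are means, error bars are SD and symbols mark replicates. In 8 genes every MPM-1 library lies below every DMSO library, in PLK3 every one lies above, and in PLK2 the treatments overlap.

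Aurora A had the largest fall of the 10. AURKA (ENSG00000087586, GRCh38 chromosome 20, 56369389 to 56392337) stood at 121, 120.4 and 117 CPM in DMSO replicates 1, 2 and 3, and at 23.1, 30.2 and 24.4 CPM in MPM-1 replicates 1, 2 and 3. The treatments were far apart, and the MPM-1 mean was 21.6% of the DMSO mean. The log2 fold change was -2.21 (± 0.11 standard error, edgeR adjusted p = 5.94e-07), and 1.63% of all genes had a lower value. GENCODE release 29 lists 2 pseudogenes of AURKA and 2 of NEK2 elsewhere in the genome, none of them in the table, and the counting of shared reads is not described.

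TPX2, the activator that takes Aurora A to the spindle, was lower by less than its kinase. TPX2 (ENSG00000088325, chromosome 20, 31739271 to 31801805) had 136, 139 and 129.8 CPM in DMSO and 80.0, 66.8 and 63.0 CPM after MPM-1. All MPM-1 libraries were below all DMSO libraries. The log2 fold change was -0.95 (95% confidence interval -1.17 to -0.73, edgeR adjusted p = 3.93e-05), just short of the fold threshold, which it passed without MPM-1 replicate 1 (-1.04). The log2 ratio of AURKA to TPX2 counts within a library was between -0.21 and -0.15 in DMSO and between -1.79 and -1.15 after MPM-1, so the balance moved by -1.26 toward TPX2, with no overlap between the treatments.

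PLK1, the kinase that Aurora A and BORA switch on, fell as well. PLK1 (ENSG00000166851, chromosome 16, 23677656 to 23690367) had 123, 122 and 109 CPM in DMSO and 30.9, 27.6 and 28.8 CPM after MPM-1. The 3 MPM-1 libraries were close to each other and far below every DMSO library, with a mean of 24.7% of the DMSO mean. The log2 fold change was -2.02 (± 0.085 standard error, edgeR adjusted p = 4.07e-07). The log2 ratio of AURKA to PLK1 counts was 0.021 ± 0.072 in DMSO and -0.18 ± 0.28 after MPM-1 (SD, n = 3 each), and these libraries overlapped. Of the exon bases of PLK1, 11.6% lie opposite AC008870.3, which has no row in the table.

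BORA, the cofactor for that switch, was among the lowest of the 10 genes. BORA (ENSG00000136122, chromosome 13, 72727749 to 72756198) had 24.1, 20.5 and 20.6 CPM in DMSO and 11.8, 13.1 and 11.7 CPM after MPM-1. The log2 fold change was -0.83 (± 0.12 standard error, edgeR adjusted p = 0.000372), not past the fold threshold. Of its exon bases, 37.0% are shared with DIS3 on the other strand, and the strand setting of the counting is not given in the sources used here. DIS3, an exosome nuclease, stood at 165 ± 10.6 CPM in DMSO and 230.2 ± 9.45 CPM after MPM-1 (not called, log2 fold change 0.48, edgeR adjusted p = 0.00060), and the part of the shared bases in the value of BORA was not tested. The deposited FPKM, which are scaled for transcript length, gave 11.4, 7.27 and 8.02 for BORA in DMSO and 5.90, 5.11 and 5.42 after MPM-1. The length implied by count and FPKM varied 1.63-fold between libraries for BORA and at most 1.06-fold for the other 9 genes.

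TACC3 and CKAP5, which act as a pair on spindle fibres, differed in size of change. TACC3 (ENSG00000013810, chromosome 4, 1721490 to 1745176) had 102, 105 and 88.5 CPM in DMSO and 30.3, 27.7 and 21.9 CPM after MPM-1, a log2 fold change of -1.88 (± 0.12 standard error, edgeR adjusted p = 3.27e-06). CKAP5 (ENSG00000175216, chromosome 11, 46743048 to 46846308) had 169, 156 and 144 CPM in DMSO and 126, 115 and 117 CPM after MPM-1, a log2 fold change of -0.39 (± 0.083 standard error, edgeR adjusted p = 0.0031). Both sets of libraries were separate, but CKAP5 kept 76.3% of its DMSO mean and TACC3 kept 27.1%. The log2 ratio of TACC3 to CKAP5 counts went from -0.67 ± 0.080 to -2.17 ± 0.21 (SD, n = 3 each).

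NEK2 (ENSG00000117650, chromosome 1, 211658657 to 211675630) had 90.4, 85.2 and 80.6 CPM in DMSO and 39.7, 33.1 and 39.8 CPM after MPM-1. The treatments did not overlap, and the MPM-1 mean was 43.9% of the DMSO mean. The log2 fold change was -1.19 (± 0.094 standard error, edgeR adjusted p = 9.59e-06).

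**Figure D2:**
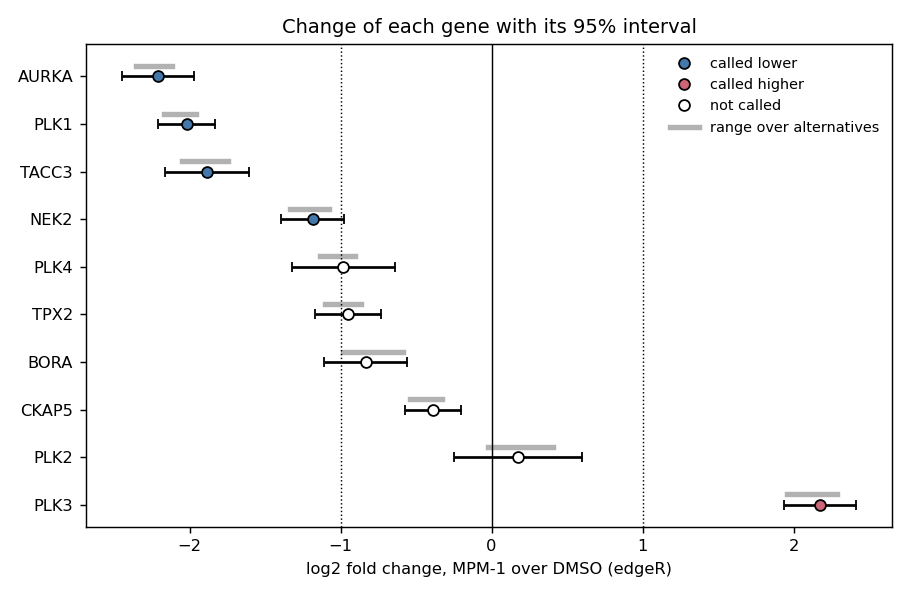
log2 fold change of MPM-1 over DMSO for each gene (points, edgeR) with its 95% confidence interval (black lines). Grey bars give the range over the alternative settings and dotted lines mark a 2-fold change. AURKA, PLK1, TACC3 and NEK2 lie past the lower line and PLK3 past the upper one, while PLK4 (-0.98) and TPX2 (-0.95) lie beside the line and PLK2 spans 0.

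The mitotic Polo-like kinases were then set against the stress-responsive ones. PLK4 (ENSG00000142731, chromosome 4, 127880861 to 127899195), which controls centriole duplication, had 18.6, 22.4 and 23.4 CPM in DMSO and 9.95, 12.8 and 9.83 CPM after MPM-1. It was lower in every MPM-1 library, with a log2 fold change of -0.98 (95% confidence interval -1.32 to -0.64, edgeR adjusted p = 0.000474), and so missed the fold threshold narrowly. It passed without DMSO replicate 1 (-1.08) or MPM-1 replicate 2 (-1.09). PLK3 (ENSG00000173846, chromosome 1, 44800225 to 44805990) had 45.8, 44.9 and 48.05 CPM in DMSO and 203, 183 and 241 CPM after MPM-1. Its log2 fold change was 2.17 (± 0.11 standard error, edgeR adjusted p = 6.36e-07), and it ranked 124 of 12982 genes by rise.

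PLK2, the other stress-responsive kinase, showed no difference past the threshold. PLK2 (ENSG00000145632, chromosome 5, 58453982 to 58460260) had 55.4, 51.2 and 48.3 CPM in DMSO and 39.4, 75.1 and 60.5 CPM in MPM-1 replicates 1, 2 and 3. One MPM-1 library was below all DMSO libraries and the other two were above them, so the treatments overlapped. The SD was 30.8% of the mean after MPM-1 and 6.98% in DMSO. The log2 fold change was 0.18 (95% confidence interval -0.25 to 0.60, edgeR adjusted p = 0.45), an interval that leaves room for changes of either sign but not for one of the size of PLK3. Without MPM-1 replicate 1 the value was 0.41 (edgeR adjusted p = 0.010), and without MPM-1 replicate 2 it was -0.021.

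Within each library the ratio of a mitotic to a stress-responsive kinase does not depend on the scaling between libraries. The log2 ratio of PLK1 to PLK3 counts was 1.42, 1.44 and 1.18 in DMSO and -2.72, -2.73 and -3.06 after MPM-1, a difference of -4.19. For PLK4 to PLK3 the difference was -3.15, for PLK1 to PLK2 it was -2.15 and for PLK4 to PLK2 it was -1.12. In all 4 pairs the treatments did not overlap. The pairs reuse the same 4 genes, and PLK1, PLK3 and PLK4 were each apart on their own, as were 64.3% of all genes. A two-sided exact permutation test gave p = 0.1 for each pair (0.1 after Benjamini-Hochberg adjustment over the 4 pairs), the smallest value that 3 libraries against 3 allow, so none could pass 0.05. Within the mitotic pair, the log2 ratio of PLK1 to PLK4 was 2.47 ± 0.25 in DMSO and 1.43 ± 0.28 after MPM-1, again without overlap but with no test. Within the stress-responsive pair, the log2 ratio of PLK3 to PLK2 went from -0.16 ± 0.14 to 1.88 ± 0.55 (SD, n = 3 each).

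**Figure D3:**
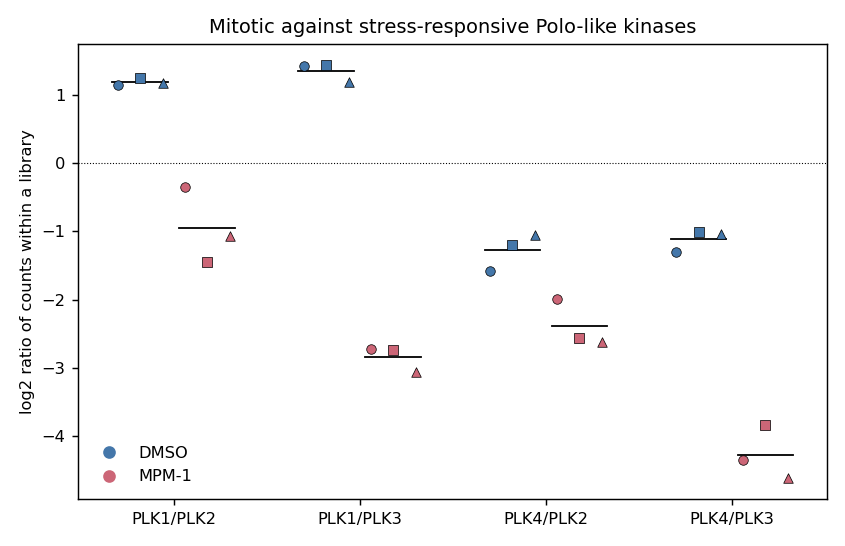
log2 ratio of counts of PLK1 or PLK4 to PLK2 or PLK3 within each of 3 DMSO and 3 MPM-1 libraries. Points are libraries, with a symbol per replicate (circle 1, square 2, triangle 3), and black lines are means. In each pair the MPM-1 libraries lie below the DMSO libraries, by 4.19 on average for PLK1/PLK3 and 1.12 for PLK4/PLK2.

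Levels of different genes were compared per transcript length, in FPKM. In DMSO the order was AURKA (56.7 ± 0.62 FPKM), PLK1 (54.2 ± 3.21), NEK2 (41.0 ± 1.71), TPX2 (39.4 ± 1.504), TACC3 (36.7 ± 3.20), CKAP5 (22.4 ± 1.41), PLK3 (19.0 ± 0.80), PLK2 (17.8 ± 0.951), BORA (8.88 ± 2.18) and PLK4 (5.73 ± 0.802; SD, n = 3 libraries each). The libraries of AURKA and PLK1 overlapped, as did those of NEK2 and TPX2, TPX2 and TACC3, and PLK3 and PLK2. After MPM-1, PLK3 led at 76.9 ± 10.3 FPKM, apart from TPX2 at 18.3 ± 2.08 FPKM. PLK2 followed at 18.2 ± 5.91 FPKM, and AURKA stood in place 7 at 11.3 ± 1.86 FPKM. In that order the libraries of TPX2 and PLK2, PLK2 and NEK2, NEK2 and CKAP5, PLK1 and AURKA, and AURKA and TACC3 overlapped, while CKAP5 and PLK1, TACC3 and BORA, and BORA and PLK4 were apart.

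Of the summed FPKM of the 4 Polo-like kinases, PLK1 made up 54.1% to 57.1% in DMSO and 9.83% to 12.6% after MPM-1. PLK3 made up 18.8% to 21.2% in DMSO and 64.1% to 73.2% after MPM-1. The sum itself was 93.6 to 99.2 FPKM in DMSO and 100.4 to 122 FPKM after MPM-1, so the sum was higher in every MPM-1 library and its largest part passed from PLK1 to PLK3.

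**Figure D4:**
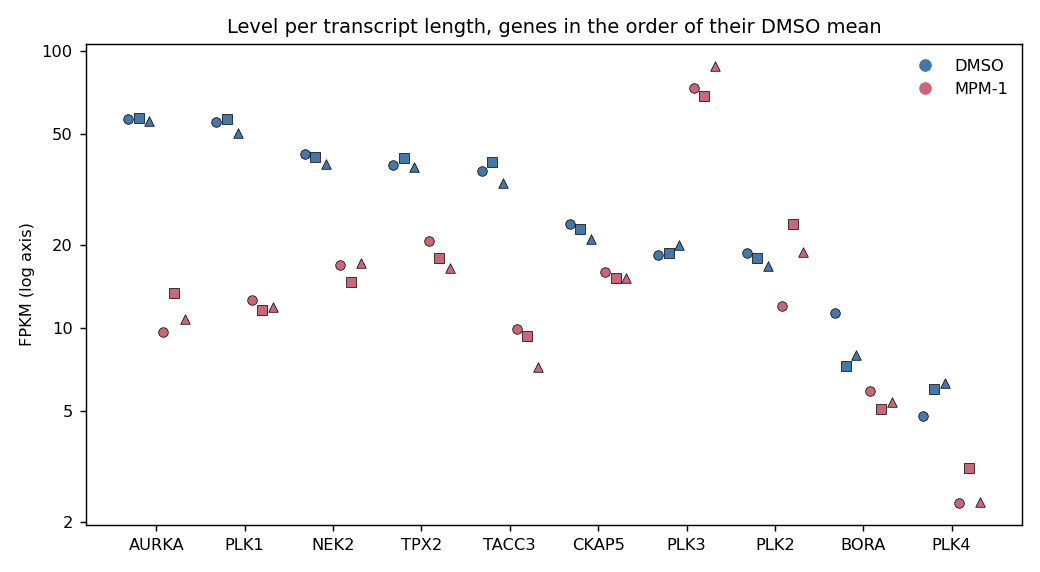
FPKM (log axis) of the 10 genes in each library, in the order of their DMSO means. Points are libraries, with a symbol per replicate (circle 1, square 2, triangle 3). The DMSO points descend from AURKA to PLK4, whereas after MPM-1 PLK3 lies above all others, at 68.8 to 88.5 FPKM.

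The wider machinery around these genes was followed in 10 lists, which held 193 other genes once each. Of these, 40 were called lower and 15 higher, against 8.75% and 5.58% of all genes, and their median was -0.18. Aurora B and its chromosomal passenger complex, which corrects chromosome attachment, had 4 of 5 genes lower. BIRC5 (survivin) had a log2 fold change of -1.96 and INCENP, the scaffold, -1.42. AURKB itself had a mean of 59.3 ± 1.42 CPM in DMSO and 24.2 ± 2.23 CPM after MPM-1 (log2 fold change -1.30). Spindle microtubule assembly had 17 of 33 genes lower, with a median of -1.01. KIF20A, a kinesin of cytokinesis, fell the most there, from 70.02 ± 6.83 to 9.87 ± 2.11 CPM (-2.83), followed by the kinesin KIF18B (-2.42).

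The CDK1 switch at mitotic entry, which PLK1 helps to turn on, had 7 of 19 genes lower (36.8%, against 8.75% of all genes). The list median was -0.37. CDC25C, the phosphatase that activates CDK1, had a log2 fold change of -2.36 and CCNB1 (cyclin B1) -1.99. Among the ubiquitin ligases that remove mitotic kinases, 5 of 25 genes (20%) were lower, led by CDC20 (-1.74) and the inhibitor FBXO5 (-1.68). Of the 25, 1 was higher, CDC16, a core subunit of the anaphase-promoting complex (1.12), where 5.58% of all genes were higher. The call of CDC16 was lost with scaling by library size alone and with limma on FPKM. In the list of MuvB, B-MYB, FOXM1 and DREAM, the regulators of G2/M transcription, 2 of 14 genes were lower, namely MYBL2 (B-MYB, -1.78) and FOXM1 (-1.35). That is 14.3% of the list against 8.75% of all genes, and the list median was -0.073.

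Centriole duplication and the centrosome scaffold had 2 of 23 genes lower, CETN3 (-1.16) and STIL (-1.11), which is the partner of PLK4. Gamma-tubulin and augmin had 1 of 18 lower, HAUS8 (-1.05), and the other NEK kinases with the centrosome linker had 1 of 16, LRRC45 (-1.21). These are 8.70%, 5.56% and 6.25% of the lists, near the 8.75% of all genes called lower. Single libraries decided these counts: gamma-tubulin and augmin had 0 without DMSO replicate 1 or MPM-1 replicate 1 and 2 without DMSO replicate 2. The NEK list had 0 when replicate 2 or 3 of DMSO, or replicate 3 of MPM-1, was left out, and the centriole list had 1 without MPM-1 replicate 1. Of 11 other activators and inhibitors of Aurora A, 0 were called with edgeR as described or with DESeq2. In edgeR 1 was lower with scaling by library size alone, with a mean of at least 50 counts, with the replicate block, and without DMSO replicate 3 or MPM-1 replicate 2. With limma 1 was lower on log2(FPKM + 0.1) and 0 on log2(FPKM + 1). Of the 11, 8 had an unadjusted p under 0.05 in edgeR, as did 61.3% of all genes. CEP192, a centrosome scaffold for Aurora A and PLK4, lay nearest to the threshold at -0.997.

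In the immediate early and stress-induced genes, the company of PLK2 and PLK3, 14 of 30 were higher and 1 was lower, with a median of 0.83, where 5.58% of all genes were higher and 8.75% lower. ATF3, a stress-induced transcription factor, went from 5.67 ± 1.97 to 47.6 ± 6.38 CPM (3.08), and DDIT3 (CHOP) from 40.4 ± 4.85 to 319 ± 87.2 CPM (2.98). MYC was the one called lower (-1.64), although 3 were called lower without MPM-1 replicate 1. The rise was not shared by the whole list, since FOS (-0.042), HMOX1 (0.014) and EGR1 (0.25) were not called. With an adjusted p-value below 0.05 in edgeR and any fold, 18 were higher and 4 lower, against 27.7% and 28.8% of all genes. The number called higher was as low as 11 in the alternatives. These lists were chosen with earlier results of the data known, so their counts describe the genes and were not tested as sets.

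**Figure D5:**
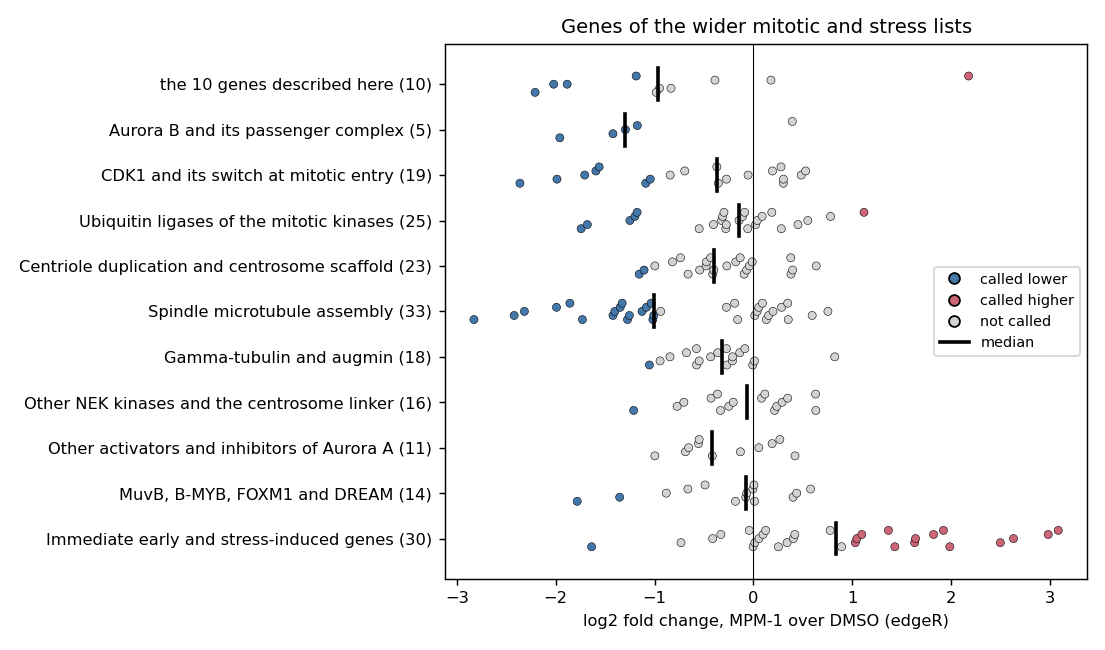
log2 fold change of MPM-1 over DMSO (edgeR) for the 10 genes and for each gene of 10 lists, with the number of genes in brackets. Points are genes, coloured where called lower or higher, and black bars are medians. The median is -1.30 for the Aurora B list, -1.01 for spindle assembly and 0.83 for the stress-induced genes.

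The genes nearest to AURKA over the 6 libraries, by the Euclidean distance between log2 CPM profiles centred on each gene's mean, were DEPDC1 (distance 0.14), NRGN (0.24) and ASPM (0.28), among 12370 genes with a median distance of 2.74. Their log2 fold changes were -2.22, -2.11 and -2.32, beside -2.21 for AURKA. The distance includes the difference between treatments, so nearness largely reflects a fold change of like size and shows no shared function. ASPM organises spindle poles. Nearest to PLK2 were DNTTIP2 (0.13), C6orf62 (0.19) and HS3ST1 (0.21), at a median distance of 0.96. DNTTIP2 went from 81.6 ± 3.23 to 94.99 ± 29.1 CPM (SD, n = 3 each), and so was likewise spread widely among the MPM-1 libraries.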

How the data were processed

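SW480 cells received DMSO or MPM-1 for 24 h, with 3 libraries each, grouped by the labels. The authors deposited 1 table with whole-number counts per gene and library and with FPKM, scaled by them for length and library size. Their own log2 fold change and FDR (adjusted p-value) columns were deposited too and were not used. The submitters' processing notes name HISAT2, DESeq2 and the mouse build mm10, while 12127 of 12982 identifiers are human Ensembl genes. The counter, the annotation and the strand setting are not given in the sources used here. Every gene had at least 115 counts over all libraries, so lower genes were not analysed here. Coordinates come from GENCODE release 29 (GRCh38) and promoter windows from RefSeq (GRCh38.p14). One promoter stretch is not reported here.

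Counts were tested in R 4.3.3 with edgeR 4.0.16 (TMM, filterByExpr, which removed 0 genes, quasi-likelihood test, no covariates), with Benjamini-Hochberg adjustment over all 12982 genes. Logarithms of CPM used a prior count of 2. The test was tried on simulated data. Libraries of one treatment differed by more than sampling noise (chi-square per gene of 15.4 to 33.2), which does not show that they were separate cultures. Each was entered as a replicate. Alternatives were other scalings, a mean of at least 50 counts, DESeq2 1.42.0, limma 3.58.1 on log2(FPKM + 0.1) or log2(FPKM + 1) after dropping means under 1 FPKM, the former also unfiltered, a replicate block, other thresholds and each library left out. FPKM fold changes on that scale understate changes of low genes. Named were the 10 genes, the 2 largest rises and falls called in each list, and the 3 genes nearest to AURKA and to PLK2. AURKB, CEP192, DIS3 and the cell markers were added after their values were seen. The genes, lists and rules were chosen with earlier results of these data known.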

Additional observations from a re-analysis of the deposited data

How the results depend on the processing

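Of the 10 genes, 4 were called lower and 1 higher, and with each library left out these counts ranged from 4 to 5 and stayed at 1. With an adjusted p-value under 0.05 and no fold threshold, 8 were lower. TPX2 and PLK4 crossed the fold threshold in 5 of 16 alternatives each, with log2 fold changes of -1.11 to -0.86 and -1.13 to -0.90. AURKA, PLK1, TACC3, NEK2 and PLK3 kept their calls in all 16. With each library left out PLK2 lay between -0.021 (without MPM-1 replicate 2) and 0.41 (without MPM-1 replicate 1), and it changed sign in the former as with limma on log2(FPKM + 0.1), filtered or not (-0.024), or log2(FPKM + 1) (-0.020). The differences of the 4 Polo-like kinase ratios, which the edgeR scalings and filters cannot move, kept their sign in the other alternatives and ranged with each library left out from -2.45 to -1.90 (PLK1/PLK2), -4.27 to -4.07 (PLK1/PLK3), -1.32 to -0.998 (PLK4/PLK2) and -3.37 to -2.98 (PLK4/PLK3). Of the listed genes, 36 to 41 were lower and 13 to 15 higher with each library left out. With an adjusted p-value under 0.05 and no fold threshold, 86 were lower and 48 higher, where 28.8% and 27.7% of all genes were. Scaling by library size alone moved the median of all genes from -0.026 to -0.18, and limma on FPKM moved it to between -0.17 and -0.13. Of all calls, 39% were higher, against 26.8% with library size alone and 28.9% (27.1% unfiltered) with limma on log2(FPKM + 0.1). Over all genes 725 were called higher and 1136 lower, against 445 and 1095 with limma on log2(FPKM + 0.1) and 351 and 716 on log2(FPKM + 1). Whether the replicate numbers pair the samples cannot be decided from 3 libraries per treatment. Deviations of libraries with the same number correlated at 0.024, 0.14 and -0.068, and some but not all libraries correlated best with their own number. With the replicate block 4 of the 10 genes were lower and 1 higher (712 higher and 1120 lower over all genes). Depth did not limit these genes, the least having 303 counts in a library.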
